A study of Mus musculus with 8 samples.

Results

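The type 2 and type 9 cytokine genes, with the transcription factor gene Gata3, formed a set of 10 genes: Il4, Il13, Il5, Il9, Il24, Gata3, Il3, Csf2, Areg and Il6. The genes were listed by name, with earlier results of these data known. Each gene was read from the transcript cluster (the array's probe group for a transcript) with the highest mean over all 8 arrays, among clusters annotated with exactly 1 gene symbol. Of the 10 genes, 9 had such a cluster, among 22180 genes in all, and Areg was not analysed here. The clusters were 17262683 for Il4, 17262695 for Il13, 17249586 for Il5, 17293013 for Il9, 17226708 for Il24, 17381533 for Gata3, 17262823 for Il3, 17262816 for Csf2 and 17435725 for Il6. A filter on dim genes left 13508 genes for testing, and it kept all 9.

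Transcript levels had been measured on 8 single-colour Affymetrix arrays, with 200 ng of total RNA labelled per array. The cells came from the spleens of C57BL/6 mice between 6 and 8 weeks old and were CD4+CD25- T cells, divided by CD45RB on their surface and then stimulated through CD3 and CD28 with plate-bound antibodies. Naive CD4+ T cells carry much CD45RB, a splice form of the phosphatase CD45, and previously activated cells carry less. The groups, with 2 arrays each, were CCR2-/- CD45RBlow, CCR2-/- CD45RBhigh, wild-type CD45RBlow and wild-type CD45RBhigh cells, where CCR2 is the receptor of the chemokine CCL2. All groups were stimulated, for 48 h by the protocols given with the samples and for 2 h by the design text of the series. The labels used here say neither how the CCR2 allele was made nor how many mice stood behind an array.

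Type 2 helper T cells make IL-4, IL-5 and IL-13, which drive antibody class switching to IgE, eosinophil production and the mucosal response to worms and allergens. GATA3 is the transcription factor that directs T cells to this fate and acts on the cluster that holds Il4, Il13 and Il5. T cells that make mainly IL-9 are related to type 2 cells, whereas IL-3 and GM-CSF, the product of Csf2, are made by many kinds of activated T cells.

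The promoters of 4 genes are shown because these genes lie in 1 stretch of chromosome 11 and moved differently with CD45RB: Il4, Il13 and Il5 rose in CD45RBlow cells and Il3 did not. Each sequence holds the 250 bases before the transcript start, read 5′ to 3′ on the gene's own strand, from the RefSeq promoter table of GRCm38.p6. They cover chr11:53618666-53618915, chr11:53634703-53634952 and chr11:54267280-54267529 on the minus strand and chr11:53720544-53720793 on the plus strand. Capitals mark GATA motifs (AGATAA or AGATAG, and TGATAA or TGATAG) and the core bound by NFAT proteins (GGAAA), the factors that carry the signal of the T cell receptor, on either strand.
Il4: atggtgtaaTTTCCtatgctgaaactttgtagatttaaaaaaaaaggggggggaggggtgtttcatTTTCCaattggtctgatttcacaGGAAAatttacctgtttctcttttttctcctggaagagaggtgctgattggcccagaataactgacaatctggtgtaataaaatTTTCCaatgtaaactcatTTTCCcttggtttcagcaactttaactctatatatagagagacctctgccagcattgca
Il13: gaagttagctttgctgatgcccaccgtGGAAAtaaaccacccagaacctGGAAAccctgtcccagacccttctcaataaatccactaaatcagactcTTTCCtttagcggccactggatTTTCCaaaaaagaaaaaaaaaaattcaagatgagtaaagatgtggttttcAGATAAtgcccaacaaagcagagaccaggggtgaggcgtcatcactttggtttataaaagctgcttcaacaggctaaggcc
Il5: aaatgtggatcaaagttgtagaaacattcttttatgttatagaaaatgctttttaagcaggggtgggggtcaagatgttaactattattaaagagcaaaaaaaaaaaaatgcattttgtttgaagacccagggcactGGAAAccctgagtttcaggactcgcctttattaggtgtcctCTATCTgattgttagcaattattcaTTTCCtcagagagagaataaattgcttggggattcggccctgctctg
Il3: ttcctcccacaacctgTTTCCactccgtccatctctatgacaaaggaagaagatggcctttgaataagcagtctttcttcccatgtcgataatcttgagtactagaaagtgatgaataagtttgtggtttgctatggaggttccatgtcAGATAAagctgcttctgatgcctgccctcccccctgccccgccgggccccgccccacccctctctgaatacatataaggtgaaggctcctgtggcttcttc
The Il4 window, taken at the outermost of 2 starts in the table, had no GATA motif and 5 NFAT cores. The Il13 window had 1 GATA motif and 4 cores, the Il5 window 1 and 2, and the Il3 window 1 and 1. Of the 10 genes 9, all but Il24, had an entry in the table, and 5 of these had a GATA motif, 9 an NFAT core and 5 both. Over all 27025 promoters of this length, 27.1% had a GATA motif, 55.6% a core and 16.0% both. Matches of the 2 kinds did not overlap in these genes. The matches describe letters in these windows and say nothing of binding.

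Replicate arrays of 1 group had r = 0.984 to 0.994 over clusters, and the median level of an array was 4.92 to 5.05 (all levels are log2). The T cell genes Cd4, at 11.5 to 11.7, and Cd3e, at 12.3 to 12.8, were high on every array. Of the CD8 T cell genes Cd8a was at 4.39 to 4.91 and Cd8b1 at 6.97 to 8.78, which lay above the median of every array. Ccr2 was at 4.26 to 5.15 over all groups, and these values do not check the genotype. The replicate numbers of the titles differed in sex-linked genes: the level of Xist ranged from 11.7 to 12.1 on arrays numbered 2 and from 4.45 to 5.02 on those numbered 1. The Y-linked Kdm5d ranged from 7.58 to 7.78 on arrays numbered 2 and from 8.83 to 9.13 on those numbered 1, and thus had signal on all arrays. Each group held 1 array of each number. Whether replicates were separate mice is not in the labels used here, and every p-value reflects the spread among these arrays alone.

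The comparison of CD45RBlow with CD45RBhigh cells asked how the sorted populations differed after stimulation. Il4, Il13, Il5, Il9, Il24 and Gata3 rose in CD45RBlow cells when both genotypes were averaged, by 1.66-fold (Gata3) to 7.90-fold (Il9). Il3, Csf2 and Il6 had lower means in CD45RBlow cells but did not pass. A gene passed where its p-value, from limma's test over all 13508 genes with Benjamini-Hochberg adjustment, was under 0.05. Thus 6 of 9 passed, all 6 higher, against 3.03% of all genes tested in either direction. With the replicate number as a block the same 6 passed, against 5.61% of all genes. The median difference was 0.82 over the 9 genes and -0.01 over all genes tested. Calls over all genes also changed when single arrays were left out. They fell without any single wild-type or CCR2-/- CD45RBlow array and rose without either CCR2-/- CD45RBhigh array. The differences of the 6 genes kept their direction in all these fits, so a call lost below need not mean a changed difference. In such bulk samples more producing cells and more transcript per cell cannot be told apart.

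**Figure D1:**
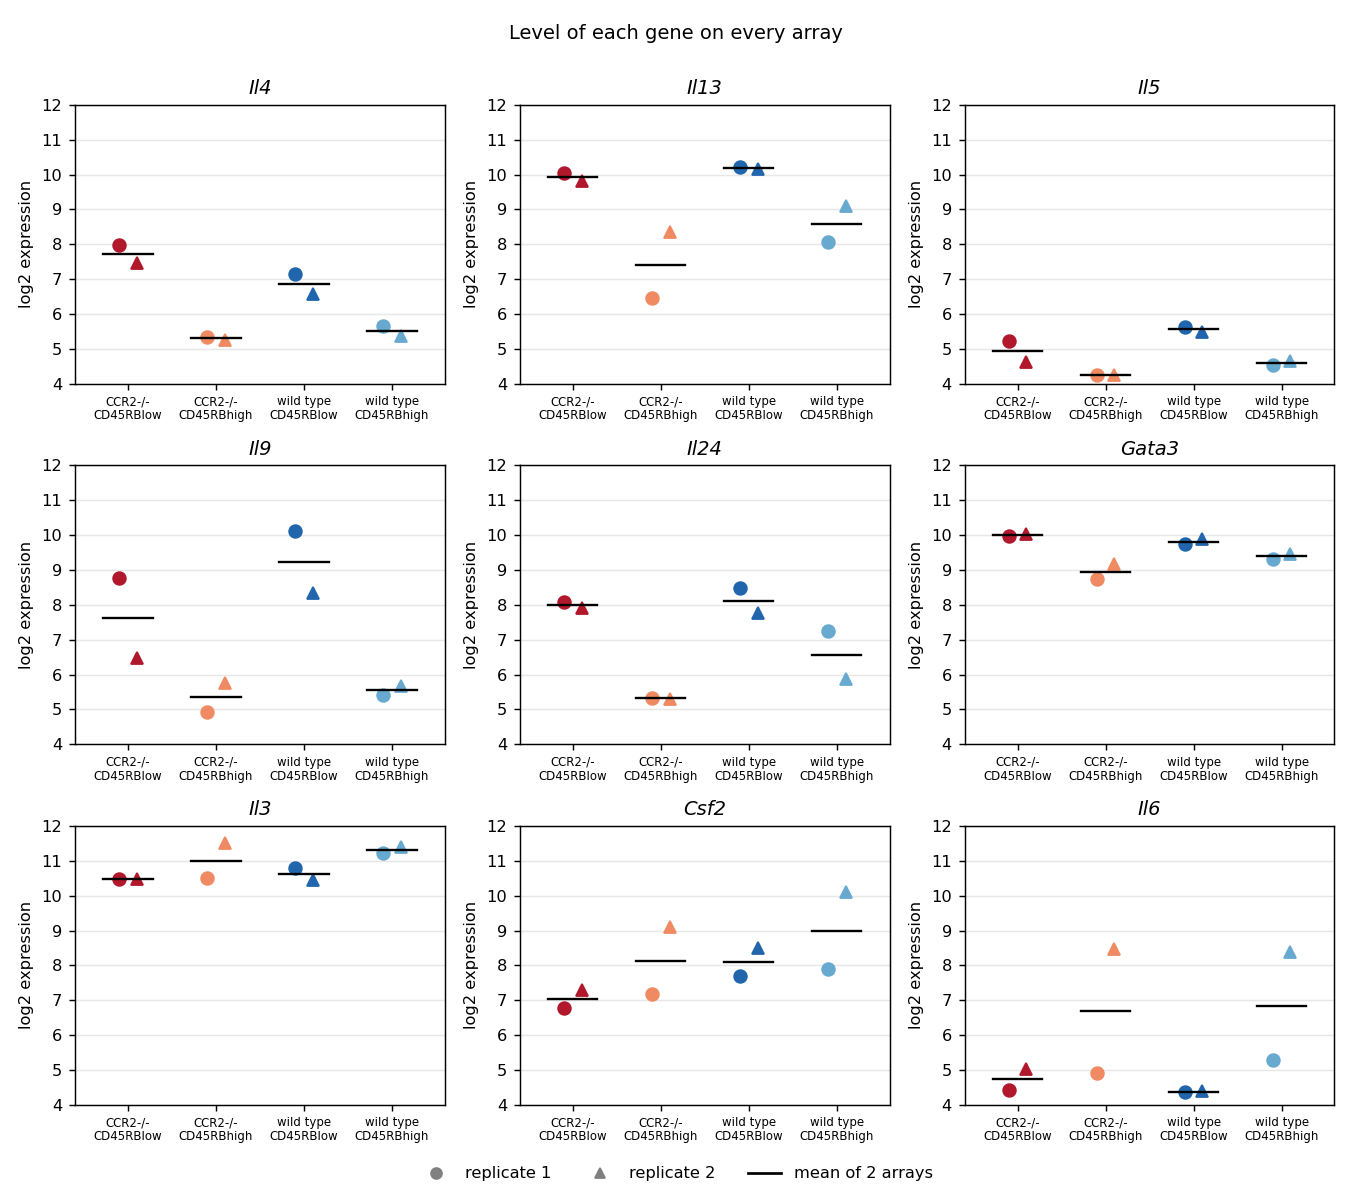
Log2 level of each gene on every array (y axis), by group (x axis); circles are replicate 1, triangles replicate 2 and lines the mean of 2 arrays. Il4, Il13, Il9, Il24 and Gata3 were higher on all 4 CD45RBlow arrays than on all 4 CD45RBhigh arrays, and Il6 was at 8.47 and 8.38 on the replicate 2 arrays of CD45RBhigh cells and at most 5.29 elsewhere.

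Il4 encodes the cytokine that both marks and induces type 2 cells. Its level was 7.97 and 7.46 in CCR2-/- CD45RBlow cells, 5.35 and 5.25 in CCR2-/- CD45RBhigh cells, 7.16 and 6.58 in wild-type CD45RBlow cells, and 5.66 and 5.37 in wild-type CD45RBhigh cells. Every CD45RBlow array lay above every CD45RBhigh array, and the CCR2-/- groups held both the highest and the lowest level, with no overlap between any of the groups. Averaged over genotypes, Il4 was 3.70-fold higher in CD45RBlow cells (log2 difference 1.89 ± 0.17 SE, limma adjusted p = 0.0044). It passed with any 1 array left out, with adjusted p from 0.0077 to 0.0236.

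Il13 encodes the cytokine behind mucus production and airway reactivity, and it neighbours Il4. It was at 10.06 and 9.82 in CCR2-/- CD45RBlow cells, 6.45 and 8.35 in CCR2-/- CD45RBhigh cells, 10.22 and 10.17 in wild-type CD45RBlow cells, and 8.08 and 9.10 in wild-type CD45RBhigh cells. The CD45RBlow arrays of both genotypes lay close together, and the CD45RBhigh arrays lay below them and far apart. The averaged difference was 2.07 ± 0.41 (SE), a 4.21-fold rise (limma adjusted p = 0.0437). Il13 passed without either CCR2-/- CD45RBhigh array, but not without any 1 of the other 6 arrays (adjusted p from 0.0851 to 0.188).

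Il5 encodes the growth factor of eosinophils and had low levels here. They were 5.23 and 4.62 in CCR2-/- CD45RBlow cells, 4.24 and 4.25 in CCR2-/- CD45RBhigh cells, 5.62 and 5.49 in wild-type CD45RBlow cells, and 4.54 and 4.65 in wild-type CD45RBhigh cells. Within each genotype the CD45RBlow arrays were higher, although CCR2-/- CD45RBlow replicate 2 lay below wild-type CD45RBhigh replicate 2. The averaged difference was 0.82 ± 0.14 (SE, limma adjusted p = 0.0286), and it was lost without any 1 of the 4 wild-type arrays (adjusted p from 0.0856 to 0.153). Il5 reached the filter, set at the 40th percentile of an array (4.53 to 4.63), on 4 arrays. It lay below on CCR2-/- CD45RBlow replicate 2, on both CCR2-/- CD45RBhigh arrays and on wild-type CD45RBhigh replicate 1, so no fold is given.

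Il9 encodes a growth factor of mast cells and had the widest range of the genes that rose. It was at 8.76 and 6.48 in CCR2-/- CD45RBlow cells, 4.93 and 5.76 in CCR2-/- CD45RBhigh cells, 10.12 and 8.34 in wild-type CD45RBlow cells, and 5.41 and 5.68 in wild-type CD45RBhigh cells. All CD45RBlow arrays lay above all CD45RBhigh arrays, and replicate 2 of both CD45RBlow groups lay well below replicate 1, by 2.28 in CCR2-/- cells and 1.78 in wild-type cells. The averaged rise was 7.90-fold (2.98 ± 0.56 SE, limma adjusted p = 0.0392). It was kept without replicate 2 of CCR2-/- CD45RBlow or of CCR2-/- CD45RBhigh cells and lost without any 1 of the other 6 arrays (adjusted p from 0.0577 to 0.162).

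Il24 encodes a cytokine of the IL-10 family that mouse type 2 cells also make. Its level was 8.09 and 7.91 in CCR2-/- CD45RBlow cells, 5.33 and 5.31 in CCR2-/- CD45RBhigh cells, 8.48 and 7.76 in wild-type CD45RBlow cells, and 7.25 and 5.88 in wild-type CD45RBhigh cells. The CD45RBlow groups overlapped, and CCR2-/- CD45RBhigh cells had the lowest arrays. The averaged rise was 4.34-fold (2.12 ± 0.29 SE, limma adjusted p = 0.0180). It was lost without replicate 1 of wild-type CD45RBlow cells (adjusted p = 0.0865) or of CCR2-/- CD45RBlow cells (adjusted p = 0.0845).

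Gata3 was at 9.97 and 10.04 in CCR2-/- CD45RBlow cells, 8.73 and 9.18 in CCR2-/- CD45RBhigh cells, 9.73 and 9.88 in wild-type CD45RBlow cells, and 9.32 and 9.46 in wild-type CD45RBhigh cells. The groups kept the order of Il4, with CCR2-/- CD45RBlow cells at the top and CCR2-/- CD45RBhigh cells at the bottom, and no group overlapped another. The averaged rise was 1.66-fold (0.73 ± 0.11 SE, limma adjusted p = 0.0244), the smallest of the 6. The call held without either CCR2-/- CD45RBhigh array and was lost without any 1 of the other 6, where the difference was 0.70 to 0.77. A second, dimmer Gata3 cluster, at 4.73 to 5.31, differed by 0.26 in the same direction, and with the mean of both clusters Gata3 did not pass (0.50, adjusted p = 0.0542).

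Il3 encodes a growth factor of mast cells, basophils and blood cell progenitors. It was at 10.48 and 10.49 in CCR2-/- CD45RBlow cells, 10.50 and 11.51 in CCR2-/- CD45RBhigh cells, 10.80 and 10.46 in wild-type CD45RBlow cells, and 11.23 and 11.41 in wild-type CD45RBhigh cells. The arrays of the CD45RBlow groups and CCR2-/- CD45RBhigh replicate 1 lay together, below the other 3 CD45RBhigh arrays. The averaged difference was -0.61 ± 0.21 (SE) and did not pass (limma adjusted p = 0.186). Without CCR2-/- CD45RBhigh replicate 1 it was -0.86 and passed (adjusted p = 0.0167), and without replicate 2 of the same group it was -0.35 and did not pass.

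Csf2, which lies beside Il3, encodes GM-CSF, a growth and activating factor of myeloid cells. It was at 6.78 and 7.28 in CCR2-/- CD45RBlow cells, 7.17 and 9.10 in CCR2-/- CD45RBhigh cells, 7.69 and 8.50 in wild-type CD45RBlow cells, and 7.91 and 10.09 in wild-type CD45RBhigh cells. Replicate 2 was the higher array in every group, by 0.51 to 2.19. By mean the order from low to high was CCR2-/- CD45RBlow, wild-type CD45RBlow, CCR2-/- CD45RBhigh and wild-type CD45RBhigh cells, and of the neighbours in it only the CD45RBlow groups did not overlap. The averaged difference was -1.01 ± 0.57 (SE, limma adjusted p = 0.418), and it ran from -1.55 to -0.46 with single arrays left out. A dimmer Csf2 cluster, at 4.32 to 4.76, differed by 0.12 in the opposite direction, and the mean of both clusters differed by -0.44.

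Il6 encodes a cytokine of inflammation that many cell types make. It was at 4.42 and 5.04 in CCR2-/- CD45RBlow cells, 4.92 and 8.47 in CCR2-/- CD45RBhigh cells, 4.36 and 4.38 in wild-type CD45RBlow cells, and 5.29 and 8.38 in wild-type CD45RBhigh cells. Replicate 2 of the CD45RBhigh groups stood apart from all other arrays in both genotypes, by 3.56 and 3.08 above replicate 1 of the same group. The averaged difference was -2.22 ± 0.88 (SE) and did not pass (limma adjusted p = 0.239). When the replicate number was added as a block, neither Csf2 (adjusted p = 0.0933) nor Il6 (adjusted p = 0.0828) passed. The replicate number moved with the sex-linked genes above, and its part in Csf2 and Il6 was not tested beyond this fit. Il6 reached the filter on 5 arrays and lay below it on CCR2-/- CD45RBlow replicate 1 and on both wild-type CD45RBlow arrays.

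**Figure D2:**
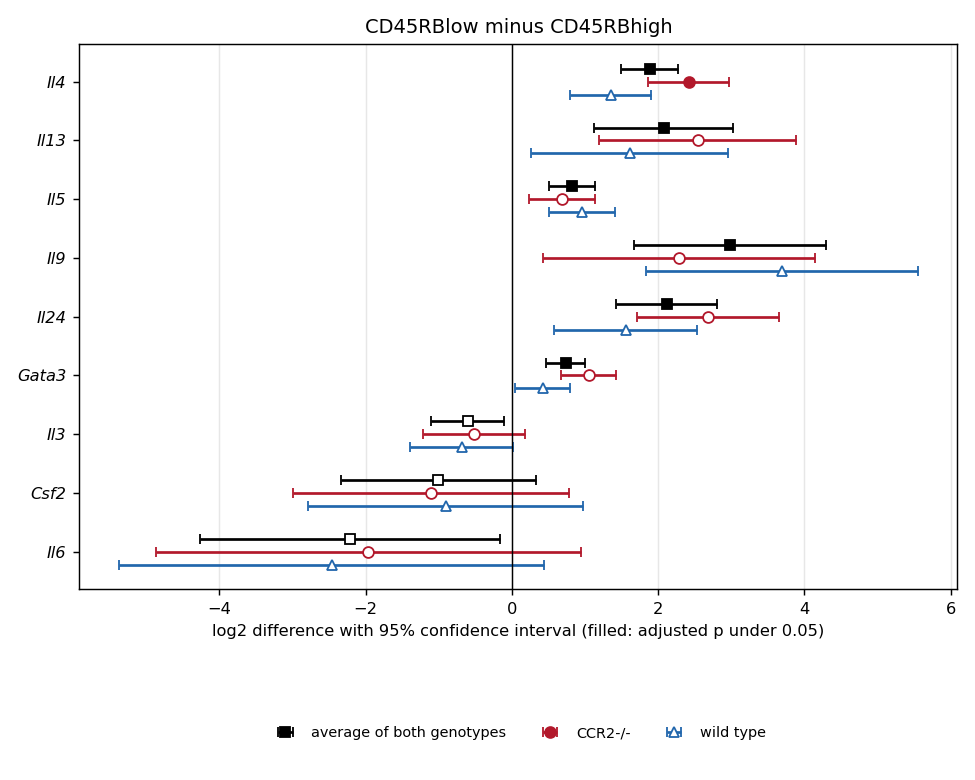
Log2 difference of each gene, CD45RBlow minus CD45RBhigh (x axis), with its 95% confidence interval, averaged over genotypes (squares), in CCR2-/- cells (circles) and in wild-type cells (triangles); filled symbols passed at an adjusted p under 0.05. The 6 averaged differences that passed ran from 0.73 (Gata3) to 2.98 (Il9), and Il4 in CCR2-/- cells (2.42) was the single one filled within a genotype.

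Within CCR2-/- cells, Il4 was 5.34-fold higher in CD45RBlow than in CD45RBhigh cells (log2 difference 2.42 ± 0.24 SE, limma adjusted p = 0.0194). It was the 1 gene of 9 that passed, against 0.333% of all genes tested. The call was lost without CCR2-/- CD45RBlow replicate 1 (adjusted p = 0.149) or replicate 2 (adjusted p = 0.0548), with array weights (adjusted p = 0.0713) and in a fit of the 4 CCR2-/- arrays alone (adjusted p = 0.0521). In that fit Il24 passed instead (adjusted p = 0.0148). With the replicate number as a block, 3 of 9 passed against 1.45% of all genes: Il4, Il24 (2.68, adjusted p = 0.0165, and 0.0619 without the block) and Gata3 (1.05, adjusted p = 0.0177, and 0.0596 without the block).

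Within wild-type cells, 0 of 9 genes passed limma's test, against 0.0888% of all genes, although 6 of the 9 and 1245 of all genes had an unadjusted p under 0.05. Il9 had the largest difference there (3.69, interval 1.83 to 5.55, adjusted p = 0.201) and Il4 was 2.56-fold higher (1.35 ± 0.24 SE, adjusted p = 0.121). With the block Il4 alone passed (adjusted p = 0.0171), 1 of 9 against 0.770% of all genes. The same 6 genes were higher on both CD45RBlow arrays than on both CD45RBhigh arrays in each genotype. With those that were lower on both, 7 of 9 genes had groups that did not overlap in CCR2-/- cells, against 37.5% of all genes, and 8 of 9 in wild-type cells, against 46.1%. Averaged over genotypes it was 5 of 9, against 14.3%.

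The difference between these subset effects, the interaction, was largest among the 9 genes in Il24 (1.12), Il4 (1.06) and Il13 (0.93) upward and in Il9 (-1.41) downward, and Gata3 had 0.63. With limma 0 of 9 genes passed, as did 0% of all genes tested, with or without the block. In limma's fit Il4 (interval 0.28 to 1.85) and Gata3 (interval 0.10 to 1.16) had an unadjusted p under 0.05, 2 of the 9, as did 160 of all genes.

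The genotype comparison asked what loss of CCR2 changed in each subset. No gene of the set passed: 0 of 9 in CD45RBlow cells, in CD45RBhigh cells or averaged, against 0% of all genes tested in each, with or without the block. At an unadjusted p under 0.05 limma had 298 genes in CD45RBlow cells, 354 in CD45RBhigh cells and 521 averaged, of which 2, 2 and 1 belonged to the set. The differences below are given as values of these arrays.

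**Figure D3:**
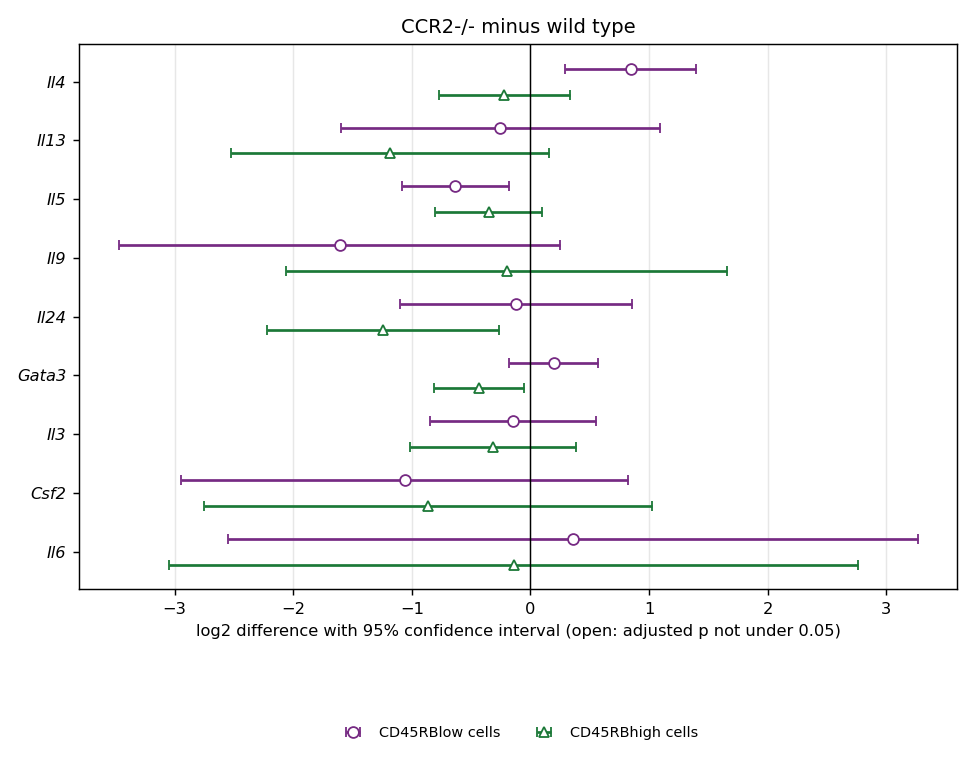
Log2 difference of each gene, CCR2-/- minus wild type (x axis), with its 95% confidence interval, in CD45RBlow cells (circles) and in CD45RBhigh cells (triangles); all symbols are open because no adjusted p was under 0.05. In CD45RBlow cells Il4 lay at 0.85 and Il9 at -1.61, and in CD45RBhigh cells all 9 lay below 0.

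In CD45RBlow cells the genes had genotype differences of both signs. Il4 had a mean of 7.72 ± 0.36 in CCR2-/- cells and 6.87 ± 0.41 in wild-type cells (SD, n = 2 each). The difference was 0.85 (95% interval 0.29 to 1.40, unadjusted p = 0.0083 from limma's fit, adjusted p = 0.99983), and it was 0.81 between the replicate 1 arrays and 0.88 between the replicate 2 arrays. Both CCR2-/- arrays lay above both wild-type arrays.

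Il5 went the other way, with a mean of 4.92 ± 0.43 in CCR2-/- CD45RBlow cells and 5.56 ± 0.10 in wild-type CD45RBlow cells (SD, n = 2 each). Its difference was -0.63 (interval -1.08 to -0.18, unadjusted p = 0.0125 from limma's fit, adjusted p = 0.99983), with -0.39 and -0.87 within replicate numbers 1 and 2. Both CCR2-/- arrays lay below both wild-type arrays, although the replicate 2 array was 0.61 lower than replicate 1 in the CCR2-/- group.

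Il9 had the largest difference in CD45RBlow cells, -1.61 (interval -3.47 to 0.25, adjusted p = 0.99983), with -1.35 and -1.86 within the replicate numbers and -2.75 to -0.46 with single arrays left out. Its groups overlapped, and replicates of each group lay further apart than the group means. Csf2 differed by -1.06, Il13 by -0.25, Il3 by -0.15 and Il24 by -0.12, while Il6 differed by 0.36 and Gata3 by 0.20. The arrays of 6 of the 9 genes did not overlap, 3 higher and 3 lower in CCR2-/- cells, against 30.5% of all genes tested. The 3 higher included Il6, which reached the filter in CD45RBlow cells only on CCR2-/- replicate 2. The median was -0.15 over the 9 genes and 0.03 over all genes.

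In CD45RBhigh cells all 9 genes had lower means in CCR2-/- cells, with a median of -0.35 against 0.02 over all genes. For Il9, Il3, Csf2 and Il6 the sign turned when single arrays were left out, up to 0.22, 0.19, 0.23 and 1.64, and between the replicate 2 arrays Il9 (0.08), Il3 (0.10) and Il6 (0.10) were higher in CCR2-/- cells. Il24 had a mean of 5.32 ± 0.01 in CCR2-/- cells and 6.56 ± 0.97 in wild-type cells (SD, n = 2 each), a difference of -1.24 (interval -2.22 to -0.27, adjusted p = 1), which ran from -1.93 to -0.56 with single arrays left out. Il13 differed by -1.18, from -2.13 to -0.23 with single arrays left out, and Csf2 by -0.86, and the arrays of both overlapped. Gata3 differed by -0.43 (interval -0.81 to -0.06), with both CCR2-/- arrays below both wild-type arrays. The arrays of 4 of the 9 genes, Il4, Il5, Il24 and Gata3, did not overlap, against 26.4% of all genes. The remaining differences were -0.35 in Il5, -0.32 in Il3, -0.22 in Il4, -0.20 in Il9 and -0.14 in Il6. Il5 reached the filter in these cells only on wild-type replicate 2.

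Il4 and Gata3, and also Il6, thus had differences of opposite sign in the subsets, while the other 6 were negative in both. The 3 were positive in CD45RBlow cells and negative in CD45RBhigh cells. Il6 reached the filter in CD45RBlow cells only on CCR2-/- replicate 2, and its sign in CD45RBhigh cells turned when single arrays were left out. Of the 6 negative in both, only Il13 and Il5 kept this sign in both subsets with any 1 array left out. In CD45RBhigh cells Il5 reached the filter only on wild-type replicate 2. The difference between the subsets is the interaction given above, which did not pass for any of them. Averaged over the subsets, 2 genes had positive and 7 negative genotype differences, from 0.31 (Il4) to -0.96 (Csf2).

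Across the 8 arrays the genes fell into blocks of like pattern. Il13 and Gata3 correlated at Pearson's r = 0.95, as did Il5 and Il9, and Il4 correlated at 0.88 with Il24 and 0.86 with Gata3. Il3, Csf2 and Il6 correlated with each other at 0.76 to 0.86, and Il4 correlated with them at -0.67 to -0.63. These values describe 8 arrays that share the 4 groups, so the difference between CD45RBlow and CD45RBhigh cells enters all of them. The replicate number enters too. In CD45RBhigh cells replicate 2 lay above replicate 1 in Il6 (by 3.56 in CCR2-/- and 3.08 in wild-type cells) and Csf2 (1.93 and 2.19). In Il3 it did so by 1.02 and 0.18. The parts of subset and replicate number in these correlations were not tested.

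**Figure D4:**
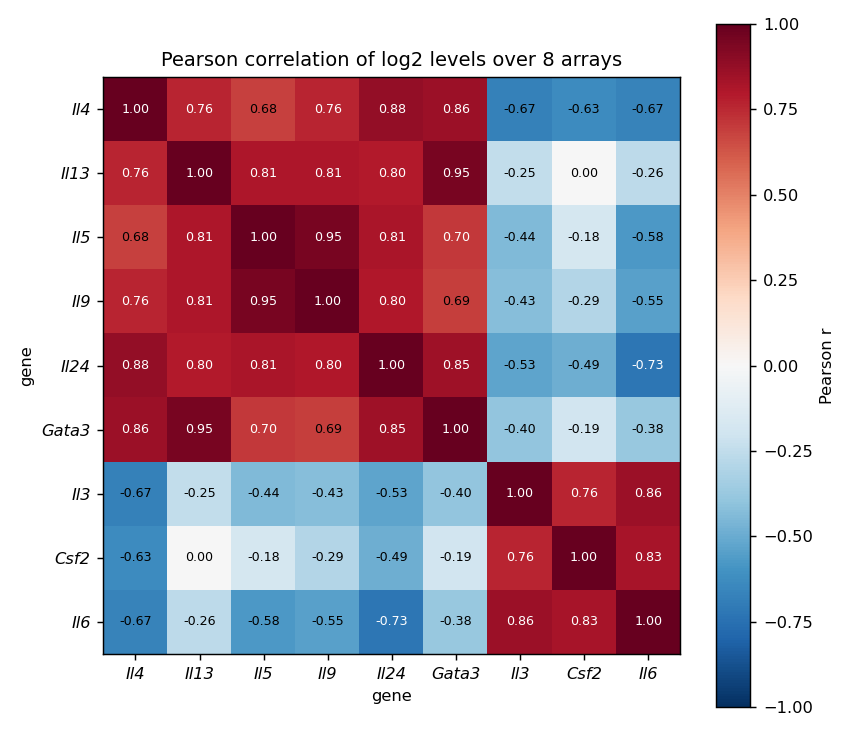
Pearson correlation of log2 levels between each pair of genes over the 8 arrays (color and printed value, from -1 to 1). Il4, Il13, Il5, Il9, Il24 and Gata3 correlated positively with each other, at 0.68 to 0.95, and so did Il3, Csf2 and Il6, at 0.76 to 0.86.

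Genes outside the set were ranked by the likeness of their pattern over the 8 arrays, among tested genes without a provisional symbol such as Gm or Rik. Those most like Il4 were Efna4 (r = 0.99), Dcun1d3, Gpld1, Irf4 and Lzic (r = 0.97 to 0.98). Those most like Gata3 were Nfia, Chst2, Ube2n, Ajuba and Slc25a13 (0.98 to 0.99). Il9 was most like Klf12, Ctf1, Ccl20, Emp1 and Fcrl1 (0.98 to 0.99), and Il3 was most like Rnd1, Irf9, Dhx58, Rtp4 and Tacr2 (0.96 to 0.98). These genes are the top of a long ranking over only 8 arrays, where selection alone favours high r. Whether their r exceeded what such selection gives was not tested. In the averaged subset comparison Gpld1, Emp1, Nfia, Chst2, Ajuba and Slc25a13 rose and passed. The other genes named here did not pass.

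The stretch of chromosome 11 around the cytokine genes did not move as a whole. The RefSeq order of its 14 protein-coding genes was Kif3a, Il4, Il13, Rad50, Il5, Irf1, Slc22a5, Slc22a21, Slc22a4, Pdlim4, P4ha2, Csf2, Il3 and Acsl6. Rad50, a DNA repair gene between Il13 and Il5, differed by -0.02 (limma adjusted p = 0.958), and Irf1, an interferon-regulated factor beyond Il5, by 0.02 (adjusted p = 0.956). At the ends, Kif3a, a motor protein gene beside Il4, rose by 0.52 (adjusted p = 0.0224) and Acsl6, a fatty acid ligase gene beside Il3, fell by 1.49 (adjusted p = 0.0035).

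The Kif3a call was lost without any 1 wild-type array or CCR2-/- CD45RBlow replicate 1 (adjusted p from 0.0690 to 0.115), whereas Acsl6 passed with any 1 array left out. Of the 8 tested genes of the stretch outside the set, 1 rose and 1 fell, against 3.03% of all genes tested in either direction. Over the list of 12 tested neighbours, which reaches further out on both chromosomes, 1 also rose and 1 fell, with a median difference of -0.03, and Mapkapk2 joined with the block (0.39, adjusted p = 0.0456, and 0.0656 without it). Within CCR2-/- cells Kif3a differed by 0.70 (adjusted p = 0.0632, and 0.0402 with the block) and Acsl6 fell (-1.67, adjusted p = 0.0194), and in wild-type cells 0 of 12 neighbours passed without the block, with Acsl6 at -1.31 (adjusted p = 0.0610, and 0.0131 with it). Il24 lies on chromosome 1 with Il20, Il19 and Il10, of which Il20 and Il19 were not kept by the filter and Il10 rose (3.58, adjusted p = 0.0075).

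**Figure D5:**
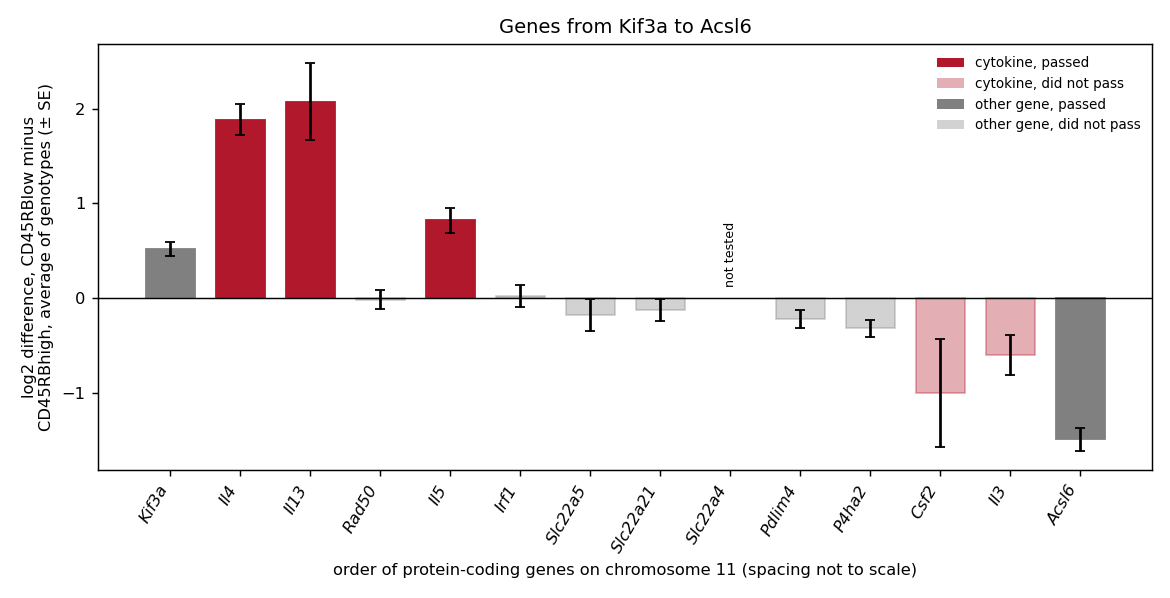
Log2 difference, CD45RBlow minus CD45RBhigh averaged over genotypes (y axis, bars ± SE), for the 14 protein-coding genes from Kif3a to Acsl6 in their order on chromosome 11 (x axis, spacing not to scale); red bars are cytokine genes, gray bars other genes, pale bars did not pass and Slc22a4 was not tested. Il4, Il13 and Il5 rose, Rad50 and Irf1 lay at -0.02 and 0.02, and Csf2 and Il3 lay at -1.01 and -0.61.

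Among 15 tested regulators of type 2 and type 9 fate, Maf alone passed in the averaged subset comparison. In that comparison 3.03% of all genes tested passed in either direction, a share that also stands beside the counts of the lists below. Maf encodes c-MAF, which drives Il4 transcription in type 2 cells. It was at 7.27 and 6.84 in CCR2-/- CD45RBlow cells, 4.79 and 4.35 in CCR2-/- CD45RBhigh cells, 7.38 and 7.01 in wild-type CD45RBlow cells, and 4.71 and 4.47 in wild-type CD45RBhigh cells. Every CD45RBlow array lay above every CD45RBhigh array by a wide margin (2.54, limma adjusted p = 0.0018), and Maf passed within CCR2-/- cells (2.49, adjusted p = 0.0171) and within wild-type cells (2.60, adjusted p = 0.0207). With the block Pparg, a nuclear receptor of type 2 cells, also passed (0.79, adjusted p = 0.0094, and 0.331 without the block), as it did within CCR2-/- cells (1.09, adjusted p = 0.0244, and 0.476 without the block). The median over the list was 0.18, with Stat6, which carries the IL-4 signal, at -0.26, Irf4 at 0.32 and Batf at 0.49, of which none passed.

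Of 7 genes that oppose the type 2 fate 0 passed limma's test. Eomes, at -0.39 (adjusted p = 0.0883), and Socs1, at 0.64 (adjusted p = 0.0952, and 0.0402 with the block), had the smallest p, and Tbx21, which encodes the type 1 factor T-bet, differed by 0.19. Of 8 tested receptor genes for these cytokines Egfr, the receptor of amphiregulin, rose (0.56, adjusted p = 0.0180), a call lost without any 1 wild-type array or CCR2-/- CD45RBlow replicate 1 (adjusted p from 0.0621 to 0.0789). Il4ra, the shared receptor chain of IL-4 and IL-13, differed by -0.01.

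Of 7 tested surface genes of type 2 cells 3 rose in CD45RBlow cells, against 3.03% of all genes tested in either direction. They were Tnfrsf8, which encodes CD30 (2.22, limma adjusted p = 0.0084), the inhibitory receptor Cd200r1 (1.67, adjusted p = 0.0032) and the chemokine receptor Ccr4 (1.004, adjusted p = 0.0044). Tnfrsf8 lost its call without wild-type CD45RBlow replicate 1 (adjusted p = 0.0581). The same 3 passed in CCR2-/- cells, against 0.333% of all genes, with differences of 2.88 for Tnfrsf8, 1.72 for Cd200r1 and 1.12 for Ccr4. Cd200r1 passed in wild-type cells (1.62, limma adjusted p = 0.0298), 1 of 7 against 0.0888% of all genes. Ccr4 was at 0.89 there and passed with the block (adjusted p = 0.0388, and 0.0718 without it). Icos also passed with the block (0.58, adjusted p = 0.0164, and 0.0792 without it). The other tested genes of the list, Ccr8 (0.54, limma adjusted p = 0.137), Crlf2 (-0.04) and Tnfrsf4 (-0.04), did not pass. Of the rest, Il17rb and Ccr3 were not kept by the filter, and Il1rl1 and Ptgdr2 had no cluster with a single symbol. Of 12 other T cell cytokine genes Il10 and Il21 (3.49, adjusted p = 0.0426) rose, and Il21 kept its call without either wild-type CD45RBhigh array and lost it without any 1 of the other 6 (adjusted p from 0.0554 to 0.190). Il10 differed by 3.35 in CCR2-/- cells (adjusted p = 0.0619, and 0.0165 with the block) and by 3.81 in wild-type cells (adjusted p = 0.0657, and 0.0150 with the block). In the genotype comparisons and the interaction 0 genes of these lists passed, as with all genes.

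Markers of other cells that can make these cytokines were mostly, but not all, low. Of 9 mast cell and basophil markers 8 stayed below the median of every array, and their mean was 4.14 to 4.29 in CD45RBlow cells and 4.13 to 4.28 in CD45RBhigh cells. The high-affinity IgE receptor chain gene Fcer1a was at 3.65 to 3.98 and the mast cell protease gene Cpa3 at 3.96 to 4.21. All 3 eosinophil markers and all 3 NK cell markers stayed below the medians, as did 4 of 5 macrophage and 4 of 5 dendritic cell markers. The fifth macrophage marker, Cd68, was at 6.88 to 8.55. The mean of 4 ILC2 markers was 4.59 to 4.93 in CD45RBlow cells and 4.48 to 4.64 in CD45RBhigh cells. Of these Rora, at 5.19 to 5.76, lay above the median of every array and differed by -0.08 between the subsets. Klrg1, at 4.18 to 5.40, differed by 0.71 (limma adjusted p = 0.131, and 0.0541 with the block) and Arg1 by 0.06. Zbtb16, which marks NKT cells, differed by 0.53 (adjusted p = 0.0524, and 0.0416 with the block).

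The mean of 4 B cell markers was 4.23 to 4.37 in CD45RBlow cells and 4.42 to 5.58 in CD45RBhigh cells, highest on the replicate 1 arrays of CD45RBhigh cells. Cd8b1 differed by -0.92 (adjusted p = 0.0776, and 0.0467 with the block) and Cd68 by -0.53 (adjusted p = 0.292, and 0.0244 with the block). Within CCR2-/- cells Cd68 differed by -0.97 (adjusted p = 0.283, and 0.0259 with the block). The part of the B cell, Cd8b1 and Cd68 signals in the differences between the sorted populations was not tested, and 0 genes of the marker lists passed without the block.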

How the data were processed

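Expression was measured in 8 RNA samples on 1-colour arrays. The deposited values are log2 expression levels of 41034 transcript clusters, which the authors made using RMA and the Partek software, per the submitters' processing notes; versions and options are not given in the sources used here. RMA normalizes the arrays against each other, so a shift shared by most genes would largely not show. The deposited values did not share exactly 1 distribution. Array medians ran from 4.92 to 5.05 and were highest on the replicate 2 arrays of both CCR2-/- groups. The values (3.07 to 13.92) were used unchanged. Arrays give no read depth, and precision is limited by how many there are.

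Gene names came from the platform annotation: 23521 clusters had exactly 1 symbol, 1814 had several and were left out, and 15699 were unnamed here. By entrez identifier 21994 of the 22180 genes matched RefSeq's mouse table. For 1082 genes with several clusters the brightest was used. Genes at or above the 40th percentile on at least 2 arrays were tested.

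With limma 3.58.1 in R 4.3.3, 1 mean per group was fitted over all 8 arrays (4 residual and 3.36 prior degrees of freedom). The 7 comparisons were CD45RBlow minus CD45RBhigh and CCR2-/- minus wild type, each within the other factor and averaged over it, and their interaction. P-values are two-sided, adjusted by Benjamini-Hochberg over 13508 genes, with a threshold of 0.05. The fit was tested on simulated arrays with independent noise, which held no deviation shared by same-numbered arrays. Of 100 true differences of 1 log2 unit it recovered 86 in the averaged subset comparison. It recovered 70 of 100 for genotype in CD45RBhigh cells and 30 of 100 in the interaction. At 2 log2 units these counts were 99, 94 and 89. Of 13308 unchanged genes 15, 6 and 10 passed in the same 3 comparisons. The simulated spread was that of all genes. For genotype in CD45RBhigh cells the median SE of all genes was 0.145, against 0.16 (Gata3) to 1.24 (Il6) in the set. The counts are thus not recovery rates for the genes of the set.

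Groups came from the sample titles, and titles without a number were taken as replicate 1. The deviations of same-numbered arrays correlated in all 6 pairs of groups (0.11 to 0.53, limit 0.1), although no label says what the numbers mark. The main fit held no term for the number, so its p-values do not use this pairing. A fit with the number as a block is given where it changes a call.

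The members, the lists of regulators, antagonists, receptors, surface genes, neighbours, cytokines and cell markers, and the tests were chosen with earlier results of these data known. All members are described. Of each list, counts and up to 4 passing genes are given, or up to 2 with the smallest p where none passed. Values of a few others were chosen after they were seen (Stat6, Irf4, Batf, Tbx21, Il4ra, Ccr8, Crlf2, Tnfrsf4, Rad50, Irf1, Fcer1a, Cpa3, Cd68, Cd8b1, Zbtb16, Rora, Klrg1, Arg1). For Il4, Il9, Gata3 and Il3 the 5 most alike tested genes by Pearson correlation are named. Members and genes with a provisional symbol (such as Gm, Rik, Mir, Snor and LOC) were left out of that ranking. Promoters, for up to 4 members, and gene order came from RefSeq tables of GRCm38.p6, searched with Python 3.11.15. No genome, scanner file or protein table was used.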

Additional observations from a re-analysis of the deposited data

How the results depend on the processing

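The 10 kinds of alternative were the replicate block, other filters, empirical Bayes settings, array weights, cluster means, 2 scalings, 4-array fits and each array left out. The count of members that rose in CD45RBlow cells, 6, stayed 6 with the replicate block, was 4 with no filter (Il13, adjusted p = 0.0633, and Il9, adjusted p = 0.0568, were lost) and ran from 1 to 6 with single arrays left out; it was 1 without wild-type CD45RBlow replicate 1. In CCR2-/- cells, 1 member passed, against 3 with the replicate block, 3 with trend and robust settings, 3 with arrays centred on their medians, 2 with a filter at the 60th percentile, 0 with array weights and 0 to 3 with single arrays left out. In wild-type cells, 0 passed, against 1 with the replicate block and 2 with array weights (Il4 and Il5). For the averaged comparison the count was also 5 with a filter at the 60th percentile, under which Il5 was not tested. It was 5 too with the mean of all clusters, where Gata3 was lost. The count stayed 0 in the genotype comparisons and the interaction under every alternative run, and the replicate block changed no other call of a member. Over all genes, the averaged subset comparison had 409 calls, 39 to 524 with single arrays left out and 352 to 758 otherwise; the subset comparison had 45 calls in CCR2-/- cells (1 to 84 and 7 to 196) and 12 in wild-type cells (1 to 54 and 10 to 116). Direction turned only in differences that had not passed. With single arrays left out these ran from -2.00 to 0.18 for Csf2 between subsets in wild-type cells. For genotype averaged over subsets they ran from -0.49 to 0.022 (Il3) and from -0.78 to 0.997 (Il6), and in CD45RBlow cells from -0.48 to 0.24 (Il24) and from -0.32 to 0.021 (Il3). In CD45RBhigh cells the genotype difference ran from -0.62 to 0.22 (Il9), -0.82 to 0.19 (Il3), -1.96 to 0.23 (Csf2) and -1.92 to 1.64 (Il6). The interaction ran from -0.020 to 1.88 (Il13), -0.59 to 0.028 (Il5), -0.34 to 0.67 (Il3), -1.29 to 0.90 (Csf2) and -1.28 to 2.28 (Il6), and for Csf2 it was 0.0061 with the mean of all clusters, against -0.20. The cause of these changes was not tested. A group left with 1 array is assumed to vary like the others. The same alternatives for the 9 passing genes of the other lists were added after seeing the data, and Il21 also lost its call with no filter (adjusted p = 0.0627) and with array weights (adjusted p = 0.0578).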
